A study of Mus musculus with 6 samples.

Results

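RNA of whole aortas from male mice was sequenced in 3 wild-type (WT) libraries and in 3 libraries of mice heterozygous for a knockout of natriuretic peptide receptor 1, labelled NPR1+/- and written Npr1+/- here. The heterozygous line was made with CRISPR-Cas9, and the labels name no other allele or treatment in either genotype. The age and strain of these mice, the position of the edit and how much of the tissue around the vessel was kept were not given in the sources used here. The libraries of each genotype are numbered 1 to 3, and the labels do not say whether a number stands for a shared litter or day. The 40 genes described here are genes of brown and white fat, the tissue that surrounds the aorta, of 18191 genes in the table. They were located by their NCBI gene identifier, and all 40 were in the table. The genes were chosen with earlier results of these data known. By role they are 10 thermogenic and brown fat genes, 6 adipocyte regulators and hormones, 9 genes of lipid storage and lipolysis, 5 of triglyceride synthesis and 10 of fatty acid synthesis.

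Perivascular fat lies directly on the outer wall of the aorta, and in mice the fat around the thoracic part is brown-like while that around the abdominal part is closer to white. Brown adipocytes burn fatty acids in mitochondria whose inner membrane is made leaky to protons by Ucp1, so that heat is released in place of ATP, and sympathetic nerves switch this on through beta-adrenergic receptors. White adipocytes store triglyceride in one large droplet and secrete hormones such as adiponectin, leptin and resistin. Both kinds take up fatty acids, make them from glucose by the lipogenic enzymes, and esterify them on a glycerol backbone. NPR1 is the receptor of atrial and B-type natriuretic peptides and makes cyclic GMP, a second messenger that stimulates lipolysis in fat cells.

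Promoter sequences are shown for 4 genes to which the results return. They are those of Ucp1, the brown fat uncoupler, and Retn (resistin), the gene with the largest estimated difference between genotypes. Those of Adipoq (adiponectin), the level against which others are read, and Fasn, the fatty acid synthase, are given as well. Each runs 5′ to 3′ on the strand of the gene, from 250 bases before the annotated start to 50 bases after it, as RefSeq gives it for GRCm38.p6. They lie at chr8:83290098-83290397 (plus strand), chr8:3655520-3655819 (plus strand), chr16:23146286-23146585 (plus strand) and chr11:120824498-120824797 (minus strand), in that order. Capitals mark the letters CCAAT or their reverse complement ATTGG, the core of the box read by the factor NF-Y.
Ucp1: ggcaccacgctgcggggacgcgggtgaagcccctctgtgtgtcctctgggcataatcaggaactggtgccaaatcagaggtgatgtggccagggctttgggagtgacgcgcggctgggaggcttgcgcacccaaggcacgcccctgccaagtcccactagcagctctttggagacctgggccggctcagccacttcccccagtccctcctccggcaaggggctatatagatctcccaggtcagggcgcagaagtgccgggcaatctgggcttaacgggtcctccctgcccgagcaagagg
Retn: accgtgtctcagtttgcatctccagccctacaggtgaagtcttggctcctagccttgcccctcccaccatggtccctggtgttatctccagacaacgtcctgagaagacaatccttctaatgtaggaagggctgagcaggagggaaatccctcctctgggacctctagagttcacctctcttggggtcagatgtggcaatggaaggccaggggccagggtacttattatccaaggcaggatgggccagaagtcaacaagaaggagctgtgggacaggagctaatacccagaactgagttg
Adipoq: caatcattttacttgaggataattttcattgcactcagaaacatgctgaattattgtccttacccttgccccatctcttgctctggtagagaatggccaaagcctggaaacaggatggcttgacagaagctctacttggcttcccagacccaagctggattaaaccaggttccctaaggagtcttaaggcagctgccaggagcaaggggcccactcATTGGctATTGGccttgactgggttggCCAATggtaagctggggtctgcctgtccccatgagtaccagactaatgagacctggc
Fasn: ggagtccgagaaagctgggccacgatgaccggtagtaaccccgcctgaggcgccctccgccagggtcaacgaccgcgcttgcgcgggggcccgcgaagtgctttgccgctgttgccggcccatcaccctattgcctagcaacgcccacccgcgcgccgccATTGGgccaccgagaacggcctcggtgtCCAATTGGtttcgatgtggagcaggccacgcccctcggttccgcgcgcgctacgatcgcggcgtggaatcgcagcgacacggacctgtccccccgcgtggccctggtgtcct
The Adipoq window held 3 such matches, whose first bases lie 34, 27 and 7 bases before the start. The Fasn window also held 3, at 90, 62 and 59 bases before the start, and the pair at 62 and 59 overlapped on opposite strands. The Ucp1 and Retn windows held none, nor did they hold any of the other motifs searched.

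Windows of the same 300 bases were held by the reference for 30 of the 40 genes (40 windows, since some genes have more than 1 start) and for 32851 starts in all, and 8 motifs were searched on both strands. CCAAT was found for 15 of the 30 genes, in 42.5% of their windows and in 37.4% of all windows. The C/EBP-type letters TTGCNNAA were found for 6 genes, Cidec, Dio2, Gpam, Lep, Plin1 and Pparg, in 15% of their windows and in 10.8% of all. The E-box CACGTG, read by the glucose-responsive factor encoded by Mlxipl and by its relatives, was found for Lipe, Mlxipl and Zic1 in 7.5% of windows against 7.15% of all. TATAAA was found for 4 genes in 10% of windows against 13.6%, and the cyclic AMP element TGACGTCA was found for Dio2 and Pnpla3 in 5% against 1.79%. The sterol element TCACNCCAC was found for Mlxipl alone, in 2.5% of windows against 1.24%. The direct repeat bound by PPAR with RXR and a looser form of it, which contains the first, were found in no window of these genes and in 0.0396% and 0.381% of all windows. A match is a description of letters, and these windows show nothing of whether a factor was bound.

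Each library held between 13510970 and 16664343 estimated counts. The targeted gene was examined first. Npr1 was at 112, 153 and 152 FPKM in WT and 70.3, 109.9 and 133 FPKM in Npr1+/-. It was lower in the Npr1+/- library of every same-numbered pair, by 0.62, 0.44 and 0.27 on the log2 scale of normalized CPM (counts scaled to library size), although WT 1 lay below Npr1+/- 3 and the groups overlapped. The exact two-sided permutation test gave p = 0.2, where 0.1 is the smallest value that 3 against 3 libraries allow. Levels below are in FPKM (fragments per kilobase of transcript, scaled to sequencing depth), given in the order of replicate number 1, 2 and 3. Log2 fold changes are Npr1+/- over WT from edgeR's quasi-likelihood test, each with its standard error (SE), and a gene was called changed at a Benjamini-Hochberg adjusted p under 0.05 and a log2 fold change of at least 0.5 in size. The 3 libraries of a genotype are taken as 3 mice, as the sources give n = 3 for each, and whether tissue was pooled is not stated in them.

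Fat transcripts were abundant in every aorta, and their amount differed more between libraries of the same genotype than between genotypes. The 40 genes took up 3.82%, 1.04% and 2.25% of all counts in WT 1, 2 and 3 and 9.85%, 2.86% and 2.39% in Npr1+/- 1, 2 and 3. The widest 95% Wilson interval of these shares, which covers counting error only, was 9.839% to 9.87%. Fabp4, the fatty acid carrier of adipocytes, ranked 3 among all genes by mean FPKM, Scd1 ranked 7 and Cfd ranked 24. In both genotypes the library numbered 1 was the highest of the 3 for 36 of the 39 genes that passed the filter on low counts, against 28.6% of all 13938 tested genes. Library 1 stood above the mean of libraries 2 and 3 by a median of 3.69-fold in WT and 3.64-fold in Npr1+/-. Over the 39 genes, the replicate number took a median of 79.1% of the sum of squares of log2 CPM and genotype 14.4%, where the medians over all tested genes were 58.1% and 10.6%.

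**Figure D1:**
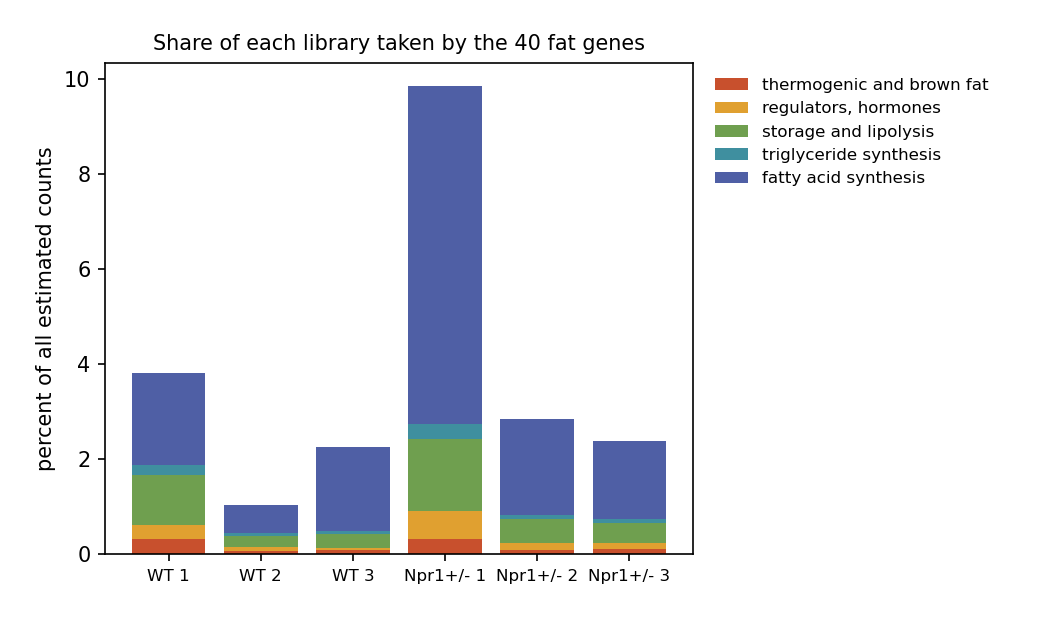
Percent of all estimated counts (vertical axis) taken by the 40 fat genes in each of the 6 libraries (horizontal axis), with the 5 roles stacked. Npr1+/- 1 reached 9.85% and WT 1 3.82%, while the other 4 libraries lay between 1.04% and 2.86%.

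The libraries also differed in other tissue components. The summed FPKM of 7 smooth muscle genes was lowest in the libraries numbered 1, at 8475 in WT 1 and 4923 in Npr1+/- 1, and lay between 13373 and 14902 in the other 4. Neuronal transcripts were highest in Npr1+/- 1: 12 neuron genes summed to 312 FPKM there and to between 67.8 and 82.1 elsewhere, and Th and Dbh, the enzymes of noradrenaline synthesis, stood at 39.0 and 56.2 FPKM there and at no more than 0.25 in any other library. The sum over 8 endothelial genes ran from 152 to 244 in WT and from 260 to 353 in Npr1+/-. In whole tissue, a larger number of fat cells and more RNA per fat cell cannot be told apart, and the part of these shifts in the results below was not tested.

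**Figure D2:**
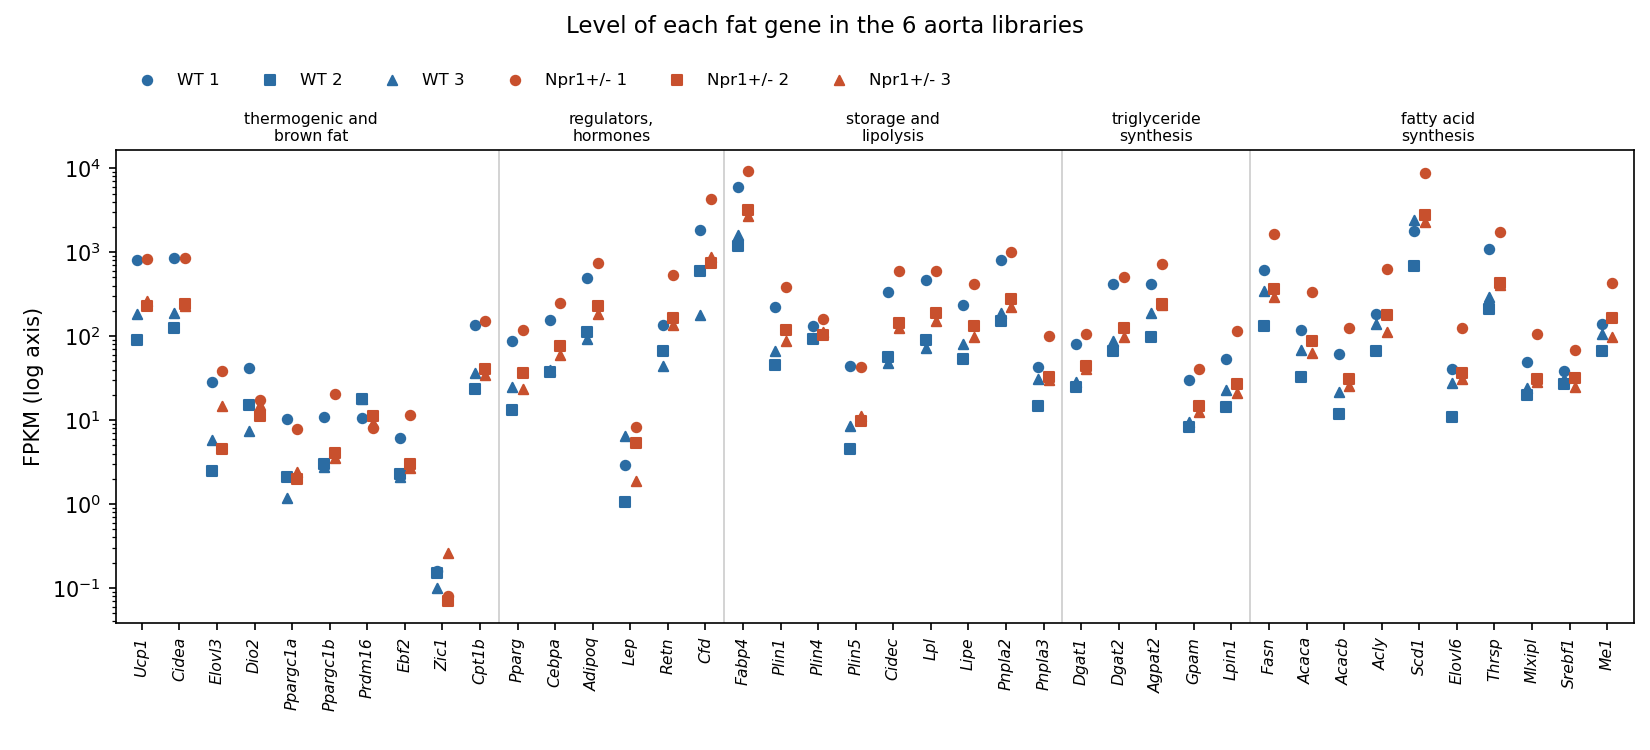
FPKM on a log axis (vertical) of each of the 40 fat genes (horizontal, by role) in the 3 WT libraries (blue) and the 3 Npr1+/- libraries (red), with the marker shape giving the replicate number. The circles, libraries numbered 1, sit above the squares and triangles of their own colour for 36 of 39 genes, and the blue and red points of most genes interleave.

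By edgeR no fat gene was called, in either direction, and 0 of all 13938 tested genes were called (0%). At an unadjusted p under 0.05 there were 412 genes (2.96%), of which 262 (1.88%) were higher and 150 (1.08%) lower, and 2 of them were fat genes, Retn higher and Prdm16 lower. DESeq2 called 0 of the fat genes and 16 genes in all (0.0883%). The estimates nevertheless leaned one way: 36 of 39 fat genes had a positive log2 fold change, against 51.6% of all tested genes, with a median of 0.75 where all tested genes had 0.01. The direction depended on which libraries entered: without Npr1+/- 1 only 8 of 39 were positive (43.5% of all genes) and the median was -0.21, while without both libraries numbered 1 the count was again 36 (51%) and the median 0.59. With the replicate number as a block, edgeR again called 0 of 39 and 0 of 13938, while 27 fat genes were higher and 1 was lower at an unadjusted p under 0.05, against 7.36% and 5.09% of all genes. DESeq2 with the same block called 14 of the 40, 13 higher and 1 lower, against 0.966% and 0.497% of all 18113 genes with a value. Within pairs, 24 of 39 fat genes were higher in the Npr1+/- library of all 3 pairs (17.5% of all genes) and 1, Prdm16, was lower in all 3 (16.9%). The block and the pairs rest on the replicate numbers, and correlations between libraries did not tell numbers 2 and 3 from each other. No fat gene had groups that did not overlap in normalized CPM, whereas 3.9% of all genes lay wholly higher and 3.58% wholly lower in Npr1+/-.

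The thermogenic genes had the smallest median of the 5 roles, 0.22 on the log2 scale, with 6 of 9 tested genes positive. Ucp1, the uncoupling protein itself, was at 811, 90.4 and 186 FPKM in WT and 829.9, 229.7 and 260.5 FPKM in Npr1+/-. Its level in Npr1+/- 1 was nearly that of WT 1, while Npr1+/- 2 and 3 stood above WT 2 and 3 by 2.62-fold and 1.33-fold in CPM. The log2 fold change was 0.31 (SE 0.89, adjusted p = 0.999 by edgeR). Cidea, a lipid droplet protein typical of brown adipocytes, was likewise nearly level in pair 1, with 845, 125 and 187 FPKM in WT and 850.4, 238 and 229 FPKM in Npr1+/-. Its log2 fold change was 0.22 (SE 0.85, adjusted p = 0.999 by edgeR).

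Elovl3, a cold-induced fatty acid elongase, was higher in the Npr1+/- library of all 3 pairs, with 28.6, 2.49 and 5.87 FPKM in WT and 38.6, 4.54 and 14.7 FPKM in Npr1+/-. Its log2 fold change was 0.71 (SE 1.02) without the block and 0.88 (SE 0.18) with it. The blocked adjusted p was 0.133 by edgeR and 0.0196 by DESeq2, which called it. Cpt1b, the muscle and brown fat carnitine transferase that admits fatty acids to mitochondria, was at 134, 23.5 and 36.9 FPKM in WT and 152, 40.4 and 34.8 FPKM in Npr1+/-, and the pairs went both ways. Ebf2, an early brown fat transcription factor, was at 6.09, 2.29 and 2.08 FPKM in WT and 11.7, 3.02 and 2.72 FPKM in Npr1+/- and was higher in every pair, and with the block edgeR gave an unadjusted p of 0.00678 and an adjusted p of 0.213.

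Dio2, which activates thyroid hormone in brown fat, did not follow Ucp1: it was at 41.8, 15.0 and 7.45 FPKM in WT and 17.3, 11.2 and 15.0 FPKM in Npr1+/-, so that WT 1 was the highest library and WT 3 the lowest. Ppargc1a, the coactivator that drives mitochondrial growth, was low throughout at 10.3, 2.12 and 1.17 FPKM in WT and 7.90, 1.99 and 2.43 FPKM in Npr1+/-. Its estimated direction changed with the fit, with a log2 fold change of -0.06 (SE 0.90) by genotype alone and 0.25 (SE 0.22) with the block. Its relative Ppargc1b was at 10.9, 3.02 and 2.76 FPKM in WT and 20.6, 4.03 and 3.49 FPKM in Npr1+/-. Zic1, a marker of the classical interscapular brown lineage, was close to absent, with 13 estimated counts at most in a library, and it did not pass the filter.

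Prdm16, the transcriptional regulator that holds brown adipocyte identity, was the only fat gene lower in Npr1+/- in every pair. It was at 10.6, 17.8 and 17.8 FPKM in WT and 7.97, 11.1 and 9.33 FPKM in Npr1+/-, so that WT 1 was below Npr1+/- 2 and the groups overlapped. Its log2 fold change was -0.70 (SE 0.24, unadjusted p = 0.0253, adjusted p = 0.999 by edgeR) and -0.67 (SE 0.15, adjusted p = 0.145) with the block, and DESeq2 with the block called it lower with an adjusted p of 0.015. Its levels did not run with those of the adipocytes, since in both genotypes it was lowest in the library numbered 1. In the WT libraries it kept a nearly fixed ratio to Myh11, the smooth muscle myosin, of 0.011, 0.0108 and 0.0107 in FPKM, and in Npr1+/- the ratio was 0.015, 0.0082 and 0.00613.

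The regulators and hormones of adipocytes had 6 of 6 positive estimates, and their median was 0.76. Pparg, the master regulator of fat cell formation, was at 87.0, 13.3 and 25.0 FPKM in WT and 117, 36.7 and 23.6 FPKM in Npr1+/-. Cebpa, its partner in differentiation, was at 156, 37.7 and 39.0 FPKM in WT and 249, 76.8 and 60.0 FPKM in Npr1+/-. Both were highest in the libraries numbered 1, and Cebpa was higher in Npr1+/- in all 3 pairs while Pparg was lower in pair 3. DESeq2 with the block called Cebpa higher, with a log2 fold change of 0.78 and an adjusted p of 0.000211, where edgeR with the block gave 0.133.

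Adipoq, the adiponectin hormone made almost only by adipocytes, was at 499, 112 and 92.8 FPKM in WT and 736, 227 and 186 FPKM in Npr1+/-. It was higher in every pair but the groups overlapped, as WT 1 exceeded Npr1+/- 2 and 3. Its log2 fold change was 0.75 (SE 0.81, adjusted p = 0.999 by edgeR), or 0.87 (SE 0.15) with the block, where the adjusted p was 0.119 by edgeR and 7.32e-06 by DESeq2. Lep (leptin), a hormone mainly of white fat, was low and scattered, at 2.91, 1.06 and 6.40 FPKM in WT and 8.25, 5.35 and 1.88 FPKM in Npr1+/-. It was higher in Npr1+/- in pairs 1 and 2 and lower in pair 3, at 0.284-fold of WT 3.

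Retn, which encodes the hormone resistin of mouse white adipocytes, had the largest estimated difference of the 39. It was at 135, 66.3 and 43.7 FPKM in WT and 538, 165 and 137 FPKM in Npr1+/-, so that the lowest Npr1+/- library only just passed the highest WT library in FPKM, and the groups overlapped in normalized CPM. Within pairs it was higher by 4.15-fold, 2.56-fold and 2.93-fold. The log2 fold change was 1.81 (SE 0.65, unadjusted p = 0.029, adjusted p = 0.999 by edgeR). With the block it was 1.66 (SE 0.16), with an adjusted p of 0.0664 by edgeR, which was the lowest of all 13938 genes, and of 4.31e-16 by DESeq2. Over the fits that left out 1 library each the estimate ran from 0.86 to 2.36, and the lowest value, 0.86 (SE 0.45, adjusted p = 0.999 by edgeR), was that without Npr1+/- 1. Cfd (adipsin), a complement protease secreted by fat, was at 1842, 602 and 178 FPKM in WT and 4258, 739 and 877 FPKM in Npr1+/-. Its log2 fold change was 1.21 (SE 1.00) and the size of the difference varied from 1.27-fold to 4.66-fold between pairs.

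All 9 genes of lipid storage and lipolysis had a positive estimate, with a median of 0.81, and 8 of the 9 were higher in Npr1+/- in every pair. Fabp4 was at 5995, 1173 and 1597 FPKM in WT and 9147, 3184 and 2731 FPKM in Npr1+/-. Plin1, which coats the droplet and gates lipolysis, was at 223, 45.5 and 66.9 FPKM in WT and 386, 117 and 87.7 FPKM in Npr1+/-. In both genes WT 1 exceeded Npr1+/- 2 and 3, and the log2 fold changes were 0.81 (SE 0.78) and 0.85 (SE 0.78). Cidec, which fuses droplets into a large one, was at 339, 56.9 and 47.8 FPKM in WT and 603, 142 and 125 FPKM in Npr1+/-. Within pairs it was higher by 1.86-fold, 2.57-fold and 2.47-fold, and with the block its log2 fold change was 1.19 (SE 0.16, adjusted p = 0.0743 by edgeR and 3.57e-11 by DESeq2).

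Lpl, the lipase that frees fatty acids from circulating lipoproteins, was at 465, 90.4 and 73.2 FPKM in WT and 600.0, 189 and 152 FPKM in Npr1+/-. Lipe, the hormone-sensitive lipase of the droplet, was at 234, 53.0 and 81.6 FPKM in WT and 421, 133 and 97.0 FPKM in Npr1+/-. The ratio of Lipe to Plin1 varied little, from 1.05 to 1.22 in FPKM over the 6 libraries. Plin5, which ties droplets to mitochondria, was at 43.9, 4.56 and 8.43 FPKM in WT and 43.1, 9.65 and 11.2 FPKM in Npr1+/-, so that pair 1 was nearly level. DESeq2 with the block called Fabp4, Plin1, Cidec, Lpl and Lipe higher, with log2 fold changes from 0.82 to 1.19, and called no other gene of this group. Pnpla2, the first lipase of triglyceride breakdown, was at 798, 151 and 189 FPKM in WT and 992, 274 and 224 FPKM in Npr1+/-. Plin4, another droplet coat protein, varied least of the group, at 133, 93.1 and 95.6 FPKM in WT and 162, 103 and 111 FPKM in Npr1+/-. Pnpla3, a lipid droplet enzyme induced with lipogenesis, was the exception in pair 3, at 42.7, 14.8 and 30.9 FPKM in WT and 101, 32.5 and 29.9 FPKM in Npr1+/-.

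Triglyceride synthesis had 5 of 5 positive estimates and a median of 0.54. Agpat2, which adds the acyl chain at the middle position of glycerol, was at 419, 97.2 and 191 FPKM in WT and 729, 239 and 234 FPKM in Npr1+/-, and DESeq2 with the block called it higher with a log2 fold change of 0.80 and an adjusted p of 0.00665. Dgat2, which makes triglyceride from diacylglycerol, was at 414, 65.9 and 87.9 FPKM in WT and 513, 126 and 99.0 FPKM in Npr1+/-, and its log2 fold change was 0.42 (SE 0.91). Dgat1, its counterpart, was at 80.9, 25.1 and 28.8 FPKM in WT and 106, 44.6 and 40.3 FPKM in Npr1+/-. Gpam, which starts the pathway, was at 30.4, 8.37 and 9.62 FPKM in WT and 40.8, 14.6 and 12.5 FPKM in Npr1+/-, and Lpin1, the phosphatidate phosphatase, was at 53.7, 14.4 and 22.9 FPKM in WT and 116, 26.8 and 20.8 FPKM in Npr1+/-. These 5 were higher in Npr1+/- in every pair except Lpin1 in pair 3.

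The fatty acid synthesis genes had the largest median log2 fold change, 1.15, with 10 of 10 positive, but the 3 pairs went different ways. The median within-pair difference in log2 CPM was 1.53 in pair 1, 1.42 in pair 2 and -0.17 in pair 3, where 4 of the 10 were higher in Npr1+/- (50.8% of all genes). For the thermogenic genes the same medians were 0.10, 0.44 and 0.31. Fasn, which assembles palmitate, was at 611, 131 and 341 FPKM in WT and 1625, 365 and 294 FPKM in Npr1+/-. Acly, which supplies its acetyl-CoA from citrate, was at 182, 66.4 and 140.0 FPKM in WT and 622, 176 and 111 FPKM in Npr1+/-. For both, WT 3 exceeded Npr1+/- 3, and the log2 fold changes were 1.11 (SE 0.86) and 1.26 (SE 0.72), each with an adjusted p of 0.999 by edgeR.

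Scd1, which puts the first double bond into stearate and palmitate, was at 1774, 685 and 2401 FPKM in WT and 8829, 2737 and 2264 FPKM in Npr1+/-. WT 3 was the highest WT library for this gene, above WT 1, which was so for none of the storage genes. The pairs differed by 5.20-fold, 4.13-fold and 0.893-fold, and the log2 fold change was 1.53 (SE 0.79, unadjusted p = 0.0957, adjusted p = 0.999 by edgeR). Without Npr1+/- 1 it was 0.60 (SE 0.54). Elovl6, which lengthens palmitate, was at 40.3, 10.8 and 27.9 FPKM in WT and 125, 36.3 and 30.9 FPKM in Npr1+/-. Its log2 fold change was 1.31 (SE 0.70), or 0.32 (SE 0.52) without Npr1+/- 1, and the pairs differed by 3.25-fold, 3.48-fold and 1.05-fold.

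Acaca, the cytosolic acetyl-CoA carboxylase, was at 119, 32.5 and 67.7 FPKM in WT and 339, 87.7 and 62.5 FPKM in Npr1+/-, and Me1, a source of NADPH, was at 141, 66.3 and 105 FPKM in WT and 434, 164 and 97.5 FPKM in Npr1+/-. Acacb, the mitochondrial carboxylase whose product restrains Cpt1, was at 61.5, 11.9 and 21.4 FPKM in WT and 123, 30.5 and 25.5 FPKM in Npr1+/-. Thrsp, a small lipogenic protein of fat and liver, was at 1085, 211 and 291 FPKM in WT and 1738, 433 and 410.4 FPKM in Npr1+/-. Of the 2 transcription factors, Mlxipl (ChREBP, responsive to glucose) was at 48.6, 19.7 and 24.3 FPKM in WT and 107, 31.2 and 28.3 FPKM in Npr1+/-, while Srebf1 (responsive to insulin and sterols) was at 38.2, 27.1 and 30.9 FPKM in WT and 68.0, 31.9 and 24.8 FPKM in Npr1+/-. Acacb, Elovl6, Thrsp and Mlxipl were higher in every pair and the other 6 were not. DESeq2 with the block called Acacb, Thrsp and Mlxipl higher, with log2 fold changes of 0.89, 0.75 and 0.68 and adjusted p of 0.00342, 0.000852 and 0.0359.

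**Figure D3:**
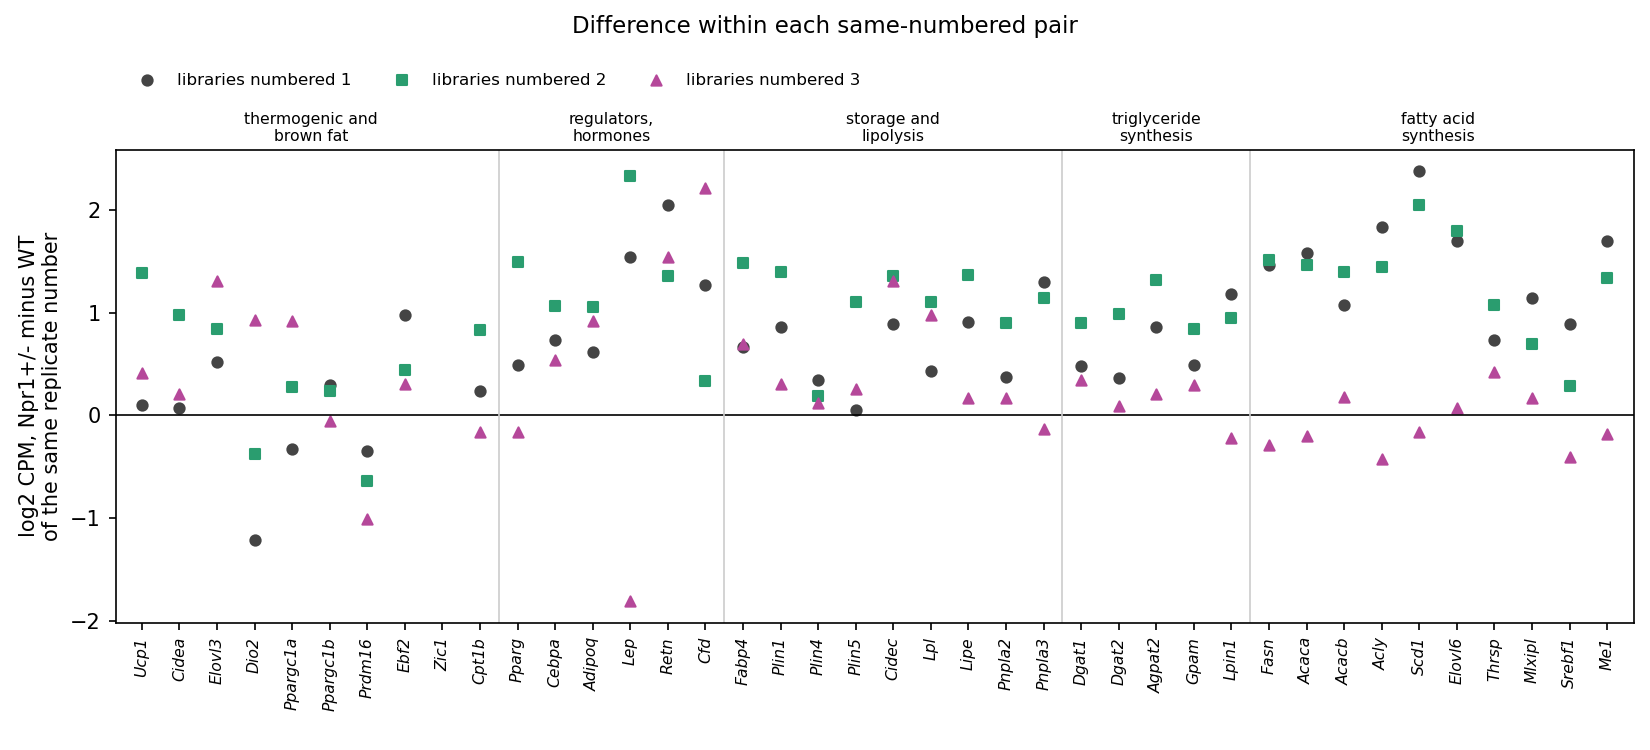
Difference in log2 CPM between the Npr1+/- and WT libraries of the same number (vertical axis) for each tested fat gene (horizontal, by role), with 1 marker for each pair; the untested Zic1 is blank. In fatty acid synthesis the circles and squares of pairs 1 and 2 lie above 0 while 6 of the 10 triangles of pair 3 lie below it, and Prdm16 lies below 0 in all 3.

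Thermogenic and lipogenic genes were then set against the amount of adipocyte transcript in each library. These comparisons, and the genes singled out in them, were chosen after the values were seen. With the mean log2 CPM of Adipoq and Plin1 as a covariate beside genotype, edgeR called 0 fat genes and 0 of 13938 genes (0%). That mean was 8.958, 6.722 and 6.935 in WT and 9.698, 7.955 and 7.552 in Npr1+/-, higher in Npr1+/- in every pair. The fit gives each gene its own slope on that mean. A gene that rose less than its slope predicts can therefore have a negative estimate here without being lower in Npr1+/-. The estimates of this fit are thus not ratios to Adipoq and Plin1, and they do not measure a separate decrease. In that fit 8 of the 9 thermogenic genes had a negative estimate (50% of all tested genes). Of these, 3 (Dio2, Ppargc1a and Prdm16) were negative by genotype alone as well. The median was -0.51, and 5 of them were lower at an unadjusted p under 0.05, against 4.28% of all genes. Markers of other cells went both ways in the same fit. Of the macrophage genes 8 of 8 had a negative estimate with a median of -0.43, 3 of them at that unadjusted p. So did 8 of 8 fibroblast genes with a median of -0.29, 1 of them at that p. Most other lists leaned higher, with 6 of 7 smooth muscle genes positive (median 0.09) and 6 of 8 endothelial genes (median 0.25). Positive estimates were also held by 5 of 7 Schwann, 3 of 4 neuron, 3 of 4 skeletal muscle and 3 of 7 cardiomyocyte genes. The part of those cells in the thermogenic estimates was not tested. The 5 thermogenic genes were Cidea, Ppargc1a, Ppargc1b, Prdm16 and Cpt1b, with log2 fold changes of -0.51 (SE 0.18), -0.71 (SE 0.25), -0.53 (SE 0.13), -0.45 (SE 0.16) and -0.61 (SE 0.16), and the lowest adjusted p among them was 0.388. For Prdm16, whose levels did not run with those of the adipocytes, the estimate by genotype alone was larger in size, at -0.70. Of the other fat genes, Plin5, Pnpla2 and Dgat2 were also lower at that unadjusted p, with log2 fold changes of -0.58 (SE 0.23), -0.42 (SE 0.16) and -0.51 (SE 0.14). The median of the fatty acid synthesis genes was 0.08 in this fit, and none of the 10 had an unadjusted p under 0.05. Negative estimates were held by 4 of those 10 and by 4 of 5 triglyceride synthesis genes (median -0.17). They were also held by 5 of 9 storage genes and by 3 of 6 regulators and hormones. The estimate for Retn was 0.98 (SE 0.24, unadjusted p = 0.00348, adjusted p = 0.388 by edgeR), and 3.75% of all genes were higher at an unadjusted p under 0.05.

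Ratios of levels per length were taken as well, 12 in all, of which 10 overlapped between genotypes and 2 did not. The share of such FPKM ratios without overlap was not computed over all genes. Among 12 ratios picked after the values were seen, some can fail to overlap without any difference between genotypes. The FPKM ratio of Retn to Adipoq was 0.27, 0.591 and 0.471 in WT and 0.73, 0.729 and 0.737 in Npr1+/-, so that the groups did not overlap. The ratio of Cidea to Cidec, droplet proteins of 1 family, was 2.5, 2.2 and 3.91 in WT and 1.41, 1.68 and 1.83 in Npr1+/-, again without overlap. Against Adipoq, however, Cidea overlapped, at 1.69, 1.12 and 2.01 in WT and 1.15, 1.05 and 1.23 in Npr1+/-. Ucp1 to Adipoq overlapped, at 1.63, 0.806 and 2 in WT and 1.13, 1.01 and 1.4 in Npr1+/-. Scd1 to Adipoq was 3.56, 6.11 and 25.9 in WT and 12, 12.1 and 12.2 in Npr1+/-, so that the WT libraries spread on both sides of the close Npr1+/- values. In log2 CPM relative to Adipoq and Plin1, 1 fat gene, Retn, was wholly higher in Npr1+/- (0.129% of all genes), and 3, Ppargc1b, Cpt1b and Pnpla2, were wholly lower (1.23% of all genes).

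**Figure D4:**
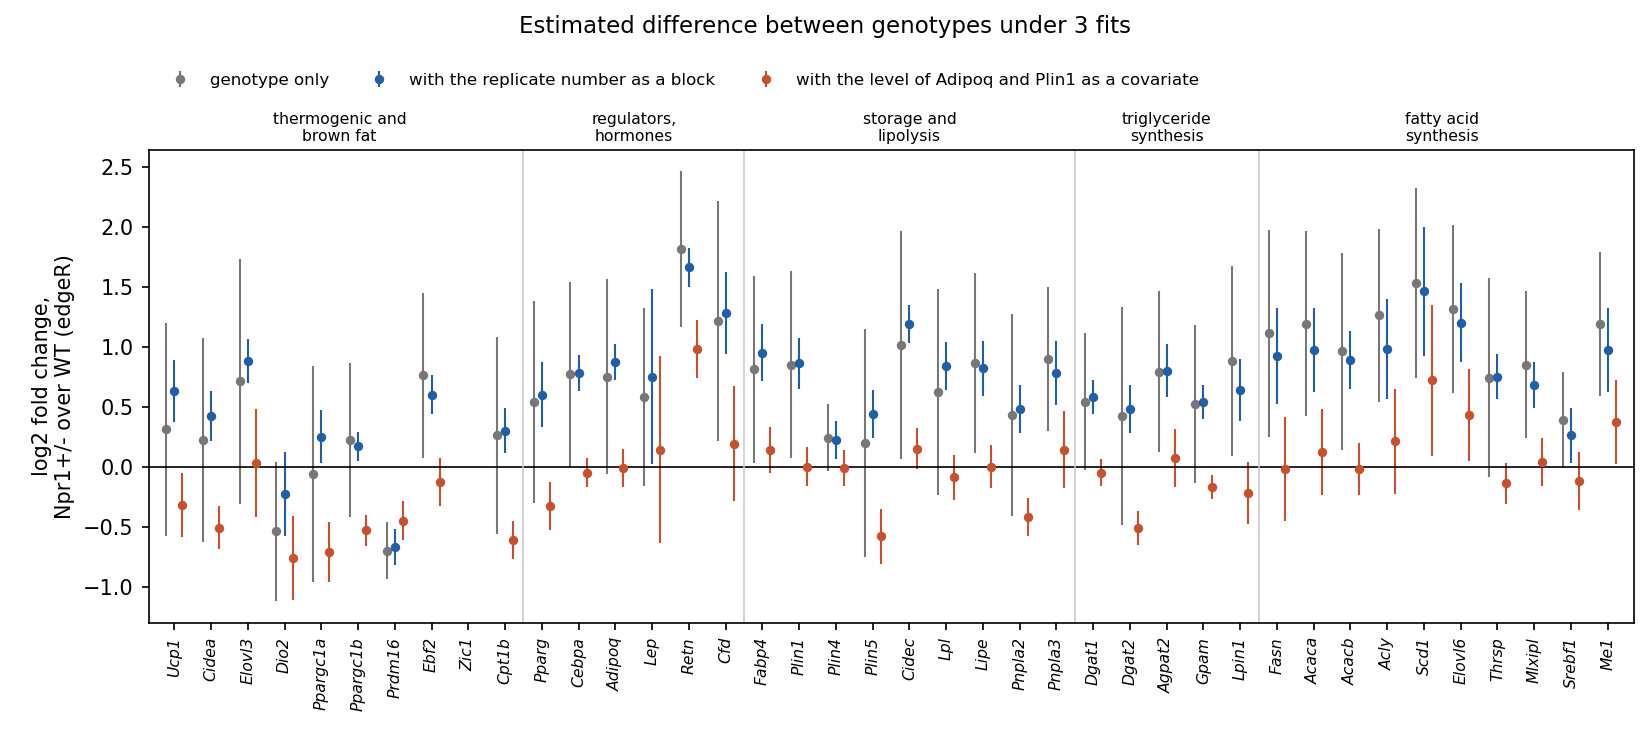
Log2 fold change of Npr1+/- over WT by edgeR (vertical axis, bars of 1 standard error) for the tested fat genes (horizontal, by role), by genotype alone (grey), with the replicate number as a block (blue) and with the level of Adipoq and Plin1 as a covariate (red). The blue bars are shorter than the grey bars for all 39 genes, and 8 of 9 red thermogenic points lie below 0.

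Genes of the same pathways outside the 40 were examined next. Of 24 other brown fat genes 22 were tested, 16 with a positive estimate, and 0 were called by edgeR with or without the block. DESeq2 with the block called 3 higher, Kcnk3, Adrb3 and Pdk4, where it called 0.966% of all genes higher. Adrb3, the beta-3 adrenergic receptor of fat, had the largest estimate of this list, with 58.8, 21.8 and 26.9 FPKM in WT and 132, 62.1 and 35.2 FPKM in Npr1+/- and a log2 fold change of 1.14 (SE 0.58). Mpzl2 and Pdk4, a brake on glucose oxidation, came next, with 0.61 (SE 0.98) and 0.61 (SE 0.82). Kcnk3, a potassium channel of brown adipocytes, was at 80.3, 12.2 and 12.3 FPKM in WT and 85.2, 23.5 and 23.0 FPKM in Npr1+/-.

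Among 35 other adipocyte genes, all tested, 31 had a positive estimate with a median of 0.32, and again 0 were called by edgeR with or without the block. DESeq2 with the block called 7 of them higher, Pck1, Agt, Car3, Sncg, Acsl1, Slc27a1 and Nrg4 (0.966% of all genes). Agt (angiotensinogen), the precursor of angiotensin peptides, had the largest estimate at 4.03 (SE 1.32), with 0.40, 0.38 and 0.20 FPKM in WT and 13.9, 0.99 and 0.64 FPKM in Npr1+/-. All 3 Npr1+/- libraries lay above all WT libraries, which 3.9% of all genes did, and the pairs differed by 30.7-fold, 2.43-fold and 2.54-fold, so that the size of the estimate, but not its direction, came from pair 1. Agt was low in the other 5 libraries, with 6 to 29 estimated counts each. It did not follow the fat transcript in WT, with 10, 11 and 6 estimated counts in WT 1, 2 and 3. Npr1+/- 1, where Agt was highest, also held the most neuronal transcript, and the part of other cells was not tested. Mogat1, a monoacylglycerol acyltransferase, and Car3, an abundant adipocyte carbonic anhydrase, followed with 1.49 (SE 0.66) and 1.01 (SE 0.94). Pck1, which supplies glycerol for esterification, was at 674, 84.6 and 77.9 FPKM in WT and 919.9, 234 and 185 FPKM in Npr1+/-.

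Of 19 other genes of fatty acid and NADPH synthesis 16 had a positive estimate with a median of 0.42, and edgeR called 0 with or without the block. DESeq2 with the block called Aacs, Pgd and Slc25a1 higher (0.966% of all genes). Acss2, the acetyl-CoA synthetase of the cytosol, had the largest estimate at 1.44 (SE 0.64), followed by Insig1 at 1.11 (SE 0.59) and Aacs at 1.07 (SE 0.68). Acss2 was at 71.6, 32.6 and 60.6 FPKM in WT and 285, 91.3 and 59.4 FPKM in Npr1+/-, and the libraries of pair 3 differed by 0.924-fold in CPM. In that pair 8 of the 19 were higher in Npr1+/-.

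The 18 genes of mitochondrial fatty acid oxidation had the same median as the thermogenic genes. Their median log2 fold change was 0.22, with 16 positive and 0 called by edgeR with or without the block or by DESeq2, and the largest were Cpt2 at 0.46 (SE 0.73), Etfdh at 0.27 (SE 0.73) and Echs1 at 0.27 (SE 0.68). Without Npr1+/- 1 the median was -0.63 with 1 of 18 positive (43.5% of all genes), and without both libraries numbered 1 it was 0.36 with 18 of 18 positive (51%). With the Adipoq and Plin1 covariate all 18 had a negative estimate (50% of all tested genes), with a median of -0.47, and 14 had an unadjusted p under 0.05, against 4.28% of all genes, while the lowest adjusted p was 0.249. In log2 CPM relative to Adipoq and Plin1 their median was -0.33, -0.09 and -0.12 in WT and -1.01, -0.86 and -0.68 in Npr1+/-, and 15 of the 18 had groups that did not overlap, all lower (1.23% of all genes). The other brown fat genes gave 20 of 22 negative estimates in that fit, 9 of them with an unadjusted p under 0.05. Other cells of the aorta also express mitochondrial genes, and their part in these ratios was not tested.

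Without both libraries numbered 1, which held the most fat transcript and the least smooth muscle transcript, the median log2 fold changes were 0.38 for the thermogenic genes and 0.57 for fatty acid synthesis, 19 fat genes were higher and 1 was lower at an unadjusted p under 0.05, against 6.43% and 5.12% of all genes, and edgeR called 0 of them (0.00717% of all genes). Without Npr1+/- 1 alone the thermogenic median was -0.66, with 0 of 9 positive, and the fatty acid synthesis median was -0.03, with 5 of 10 positive. Without WT 2, the library with the least fat transcript, the thermogenic median was -0.15.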

How the data were processed

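Per the study methods, the authors cleaned their reads in SOAPnuke, aligned them with Bowtie2 against reference coding genes and deposited expected counts per gene from RSEM. The labels name mm10 as the build and DESeq2 1.4.5 among the authors' tools. A second deposited set of columns was read as FPKM from its values, since its unit is not given in the sources used here. Of 18191 genes 18070 were paired with a symbol. Gene positions and promoters are those of RefSeq for GRCm38.p6. Counting by strand is not stated, so overlapping genes cannot be told apart.

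Expected counts were rounded and tested in edgeR 4.0.16 (R 4.3.3) with TMM scaling and a minimum count of 10, which left 13938 genes, and p-values were adjusted over all of them. Calls needed an adjusted p under 0.05 together with a log2 fold change of 0.5 or more in size. Log2 CPM used a prior count of 2. Alternatives were DESeq2 1.42.0, its size factors, no filter, limma 3.58.1 on log2(FPKM + 0.1) or log2(FPKM + 1), a replicate block, other fold thresholds and each library left out. The Adipoq and Plin1 covariate was added after the data were seen. The genes and lists were chosen with earlier results of these data known. The named genes are the key enzymes, hormones and regulators of each role, the 5 with the largest fold change, any gene called in any fit and, of each further list, the 3 with the largest change. The edgeR, DESeq2 and limma fits by genotype and the block fits were also run on simulated counts. Those counts held no effect of replicate number or fat content, so they cannot show how the block fits behave on these libraries.

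The deviations of same-numbered libraries from their group means correlated at 0.64, 0.39 and 0.24 over genes. Those of other numbers correlated from -0.58 to 0.44. WT 3 correlated more with Npr1+/- 2 (0.44) than with Npr1+/- 3 (0.24), and WT 2 with Npr1+/- 3 gave 0.37. The correlations thus set the libraries numbered 1 apart but did not tell numbers 2 and 3 from each other. The numbers were nevertheless taken to pair the libraries, and every block fit and within-pair value rests on that choice. Whether to pair by number was judged from the data alone, since the labels do not explain the numbers.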

Additional observations from a re-analysis of the deposited data

How the results depend on the processing

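The call of no changed fat gene by edgeR held under every alternative except DESeq2 with the replicate block, which called 14 of the 40. Over all genes DESeq2 called 16, DESeq2 with the replicate block 265 and edgeR without both libraries numbered 1 called 1 (Gm14434, which is no fat gene), where edgeR by genotype alone called 0. DESeq2 with the replicate block called 3 of the other brown fat genes, 7 of the other adipocyte genes and 3 of the other fatty acid and NADPH synthesis genes. All of these were higher, as were 0.966% of all genes by that fit. The replicate block in edgeR called 0 genes and changed no other call; the cause of the difference between the tools was not tested. Ppargc1a turned positive with the replicate block (0.25 by edgeR and 0.27 by DESeq2), in limma (0.18 with the pseudocount 0.1, with or without the filter, and 0.09 with 1) and without both libraries numbered 1 (0.59). Without those libraries Dio2 also turned to 0.21, Lep to -0.07 and Srebf1 to -0.06.

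The direction of most estimates depended on single libraries. Over the fits that leave out 1 library, the median log2 fold change ran from -0.66 to 1.41 for the thermogenic genes, from -0.18 to 1.84 for regulators and hormones, from -0.03 to 1.64 for fatty acid synthesis, from -0.58 to 1.36 for the other brown fat genes from -0.06 to 0.69 for the other fatty acid and NADPH synthesis genes and from -0.63 to 1.19 for mitochondrial fatty acid oxidation. The lowest came without Npr1+/- 1, where 28 of 40 genes (the 39 and Npr1) turned their sign. Over these fits the ranges of the log2 fold change were Ucp1 -0.60 to 1.68, Cidea -0.76 to 1.5, Elovl3 -0.40 to 2.26, Dio2 -0.96 to 0.38, Ppargc1a -1 to 1.5, Ppargc1b -0.66 to 0.94, Ebf2 -0.30 to 1.41, Cpt1b -0.82 to 1.34, Pparg -0.49 to 1.62, Cebpa -0.21 to 1.76, Adipoq -0.21 to 1.92, Cfd -0.14 to 2.37, Fabp4 -0.01 to 1.87, Plin1 -0.16 to 1.82, Plin4 -0.03 to 0.40. For the remaining genes that turned in at least 1 fit they were Plin5 -0.92 to 1.71, Cidec -0.18 to 2.49, Lpl -0.32 to 1.96, Lipe -0.13 to 1.70, Pnpla2 -0.64 to 1.56, Dgat1 -0.11 to 1.24, Dgat2 -0.78 to 1.70, Agpat2 -0.04 to 1.48, Gpam -0.28 to 1.34, Lpin1 -0.38 to 1.57, Fasn -0.16 to 1.70, Acacb -0.20 to 1.86, Thrsp -0.36 to 1.79, Mlxipl -0.08 to 1.33, Srebf1 -0.21 to 0.67. The estimates that kept their sign ran from 0.86 to 2.36 for Retn, 0.60 to 1.94 for Scd1, 0.32 to 1.74 for Elovl6, 0.31 to 1.56 for Me1, 0.12 to 1.66 for Acly, 0.05 to 1.41 for Lep, 0.04 to 1.25 for Pnpla3, 0.01 to 1.72 for Acaca and -0.91 to -0.57 for Prdm16, and all but the last were lowest without Npr1+/- 1. The 3 libraries per genotype limit every test here, and at a total of 13510970 to 16664343 counts per library only Zic1 of the 40 genes fell under the filter on low counts.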
